A study of Mus musculus with 6 samples.

Results

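Pax3, Foxd3, Tfap2a, Tfap2b, Snai1, Snai2, Twist1, Ets1, Msx1 and Zic1 are transcription factors of the neural crest, the embryonic cell population that gives rise to Schwann cells, the glia of peripheral nerves. Their rows were taken by gene symbol from a table of counts per gene in mouse sciatic nerve, and all 10 symbols matched 1 row each of 54838. RNA was sequenced from nerves of C57 Bl mice at postnatal day 3. The mutant group, called cKO here, held 3 libraries labelled CnpCre Actl6afl/fl, in which a Cre recombinase carrying the name of the glial gene Cnp acts on floxed Actl6a. Cnp is active in Schwann cells, whereas a whole nerve also holds fibroblasts, perineurial cells, vessels and immune cells. Actl6a encodes a subunit of the BAF chromatin remodelling complex. The control group held 3 libraries labelled WT, and the labels do not say whether these mice carried Cre or floxed alleles. Whether a library came from 1 mouse or from pooled mice is not stated in the labels. The p-values below therefore set each group difference only against the spread between these 6 libraries. That spread may in part be technical and need not be that between mice.

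In the embryo the crest forms at the border of the neural plate, where Pax3, Msx1, Zic1 and the AP-2 factors Tfap2a and Tfap2b are among the genes that specify it. Foxd3, Snai1, Snai2, Twist1 and Ets1 then act in the crest itself, where the Snail and Twist factors repress epithelial genes as the cells leave the neural tube. Cells that settle along nerves become Schwann cell precursors and then immature Schwann cells, and most crest factors decline on the way. Several of the 10 are also used outside this lineage: Pax3 in muscle progenitors and melanocytes, Tfap2a in epidermis, Twist1 and Snai2 in fibroblasts, and Ets1 in endothelium and lymphocytes.

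Total counts were 31404107 to 32674317 per library in cKO and 33084003 to 36760296 in WT. Levels are given as CPM, counts scaled to library size with TMM factors. The targeted Actl6a transcript itself ran from 41.5 to 47.6 CPM in cKO and from 46.2 to 53.3 CPM in WT nerves, which overlapped (log2 fold change -0.17, edgeR quasi-likelihood adjusted p = 0.243). In whole nerve, counted over all exons, it checks the labels only weakly. Defining Schwann cell transcripts were present in every library, and Sox10, the lineage factor of neural crest glia, ran from 85.7 to 164.4 CPM in cKO and from 238.8 to 277.2 CPM in WT. The library of cKO replicate 2 stood apart, with skeletal muscle fibre markers summing to 77318 CPM against 5216 and 6008 CPM in the other cKO libraries and 4157 to 5953 CPM in WT.

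Of the 10 factors, 5 rose in cKO nerves (Pax3, Tfap2a, Ets1, Twist1 and Snai2), 1 fell (Foxd3) and 4 were not called (Tfap2b, Snai1, Msx1 and Zic1). A gene was called where the adjusted p of edgeR's quasi-likelihood test, taken over all 18775 genes tested, was below 0.05. By the same rule 8.55% of all genes tested were called higher and 10.3% lower. The median log2 fold change was 0.74 over the 10 factors and 0.04 over all genes tested. In 5 factors every cKO library lay above every WT library and in 1 every cKO library lay below, which held for 21.0% and 21.7% of all genes tested. All 10 passed the filter on low counts, but Pax3 did so through its cKO libraries alone, since 0 of the 3 WT libraries reached the 0.304 CPM that the filter sets. Pax3 is among the 5 in both counts above, and its call is no independent support for a change of the 10 factors. 

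Each library was also left out in turn. In these 6 leave-one-out fits the share of all genes called was 7.02% higher and 9.24% lower without cKO replicate 1, 17.8% and 17.6% without cKO replicate 2, and 4.38% and 6.11% without cKO replicate 3. It was 2.33% and 4.30% without WT replicate 1, 2.50% and 4.26% without WT replicate 2, and 2.36% and 4.09% without WT replicate 3, so a call lost without a WT library is lost where few genes are called at all. With all 6 libraries, 8.51% were higher and 10.2% lower with RLE factors, 10.5% and 11.5% with DESeq2, 4.57% and 5.45% with no low-count filter, and 3.96% and 5.90% with the replicate number as a term. Because nerves were sequenced whole, a change in the number of cells of a type and a change of RNA per cell cannot be told apart in any value below.

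**Figure D1:**
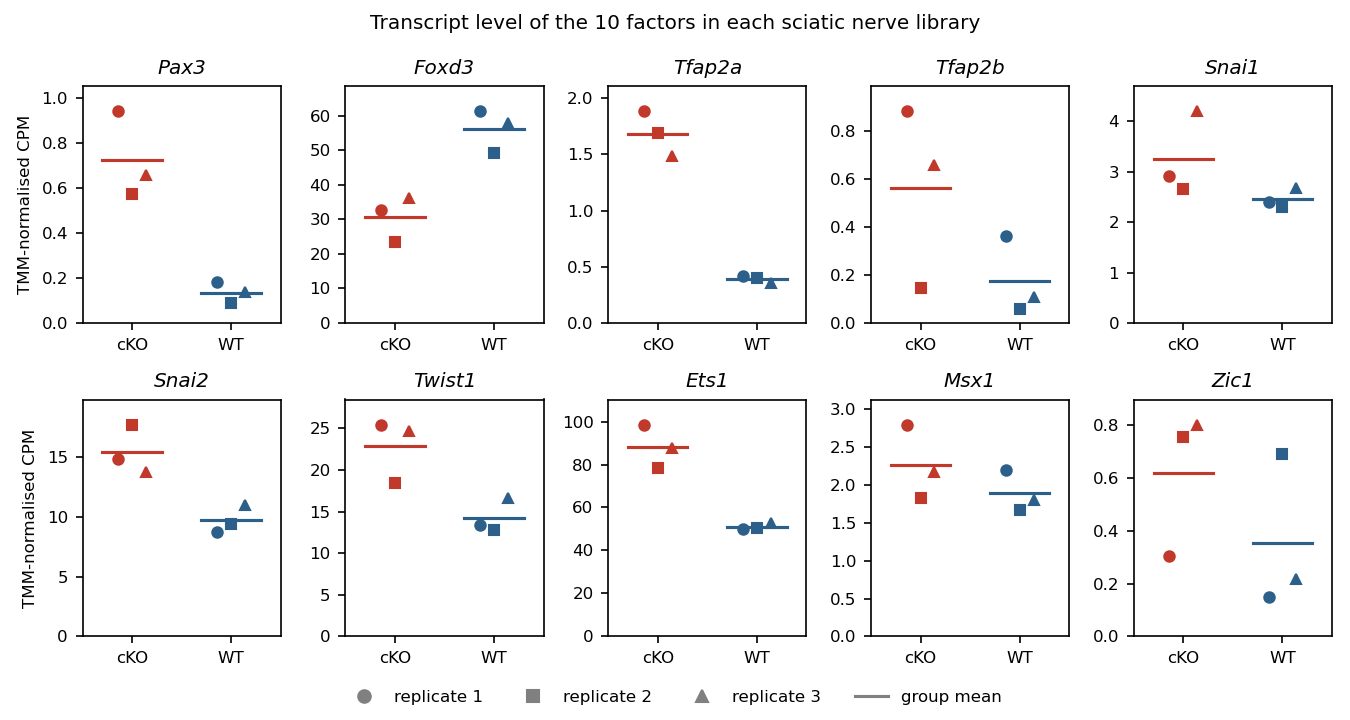
Each panel shows 1 factor, with its TMM-normalised CPM in each library on the vertical axis (from 0), cKO in red on the left and WT in blue on the right, a marker shape per replicate number and a line at the group mean. The groups are apart in Pax3, Foxd3, Tfap2a, Snai2, Twist1 and Ets1, and overlap in Tfap2b, Snai1, Msx1 and Zic1 (Snai1 by 1 cKO library).

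The sequences before a start of 3 called factors are shown because these factors went different ways: Tfap2a had one of the larger rises, Twist1 one of the smaller, and Foxd3 alone fell. Each is the 250 bases before the RefSeq transcription start on build GRCm38.p6, written 5′ to 3′ on the strand of the gene, with every match of the motifs named below in capitals. The Foxd3 and Twist1 windows end where the counted gene begins. The Tfap2a start is an internal one, inside the span of the gene as counted, which has 1 exon further 5′, so that window precedes this start and not the 5′ end of the gene.

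Tfap2a (chr13:40734921-40735170, minus strand): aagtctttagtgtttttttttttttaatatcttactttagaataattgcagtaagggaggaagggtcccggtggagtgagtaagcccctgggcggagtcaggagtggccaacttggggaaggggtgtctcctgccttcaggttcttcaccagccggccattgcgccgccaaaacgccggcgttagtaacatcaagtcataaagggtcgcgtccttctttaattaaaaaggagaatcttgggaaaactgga

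Twist1 (chr12:33957421-33957670, plus strand): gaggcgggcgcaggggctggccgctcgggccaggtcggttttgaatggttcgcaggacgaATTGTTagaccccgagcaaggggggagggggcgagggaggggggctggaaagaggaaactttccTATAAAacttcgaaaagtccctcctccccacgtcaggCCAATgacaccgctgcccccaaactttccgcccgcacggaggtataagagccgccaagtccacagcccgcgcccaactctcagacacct

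Foxd3 (chr4:99656049-99656298, plus strand): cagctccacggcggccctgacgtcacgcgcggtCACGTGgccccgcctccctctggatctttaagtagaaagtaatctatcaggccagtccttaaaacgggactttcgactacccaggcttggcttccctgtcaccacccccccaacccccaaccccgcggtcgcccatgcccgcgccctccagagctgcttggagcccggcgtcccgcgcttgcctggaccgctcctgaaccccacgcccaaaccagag

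The motifs searched on both strands were the AP-2 site GCCNNNGGC, the E-box CANNTG that bHLH factors such as Twist1 bind, its Snail form CAGGTG, the SOX core AACAAT, the CCAAT box and the TATA box TATAAA. The Snail form is itself an E-box, so its matches are counted under both. The Foxd3 window held 1 E-box, CACGTG, and no match of the others. The Twist1 window held 1 SOX core (read as ATTGTT), 1 CCAAT box and 1 TATA box, and no E-box. The Tfap2a window held no match of any of them, nor did that of its second listed start. Among 32851 RefSeq windows of this length, 66.2% held an E-box, 17.2% the Snail form, 13.7% an AP-2 site, 9.42% a SOX core, 33.8% a CCAAT box and 12.4% a TATA box.

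The windows also differed in base composition. G and C made up 65.6% of the Foxd3 window and 62.4% of that of Twist1, both above the upper quartile of all windows (61.2%), and 47.6% of that of Tfap2a, below the median (52.4%). Foxd3 had 21 CpG dinucleotides, Twist1 18 and Tfap2a 10, against a median of 6. The table held upstream windows for 7 of the 10 factors; those of Pax3, Snai2 and Ets1 were not analysed here.

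Pax3, a paired-box factor of the neural plate border and of immature Schwann cells (ENSMUSG00000004872, GRCm38 chromosome 1, 78101267 to 78197134), had 31, 16 and 23 counts in cKO nerves and 6, 3 and 5 counts in WT nerves. As levels these were 0.942, 0.574 and 0.657 CPM in cKO and 0.181, 0.0865 and 0.137 CPM in WT. The lowest cKO library lay above the highest WT library. The log2 fold change was 2.40 (SE 0.39, 95% interval 1.49 to 3.32, edgeR adjusted p = 0.00788), and it was called in each of the 6 leave-one-out fits. Its WT counts are so few that the size of the change is loosely set, as the interval shows.

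Pax3 is also a gene of muscle progenitors, and those markers moved with 1 library. The 8 progenitor markers, among them Myf5 and Myod1, summed to 30.4, 373.7 and 39.4 CPM in cKO and to 21.4 to 30.2 CPM in WT, with a median log2 fold change of 2.28. Of the 8, 0 were called by edgeR (2 at an unadjusted p under 0.05) and 1 by DESeq2; without cKO replicate 2 the median was 0.53 and 3 were called higher by edgeR. In cKO replicate 2, where these markers were highest, Pax3 was at its lowest among the cKO libraries, as were Foxd3, Tfap2b, Snai1, Twist1, Ets1 and Msx1. Without that library the log2 fold change of Pax3 was 2.54 (adjusted p = 0.000617). The part of muscle progenitors in the rise of Pax3 was not tested.

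Tfap2a, the AP-2 factor of early crest and epidermis (ENSMUSG00000021359, chromosome 13, 40715302 to 40738376), had 62, 47 and 52 counts in cKO and 14, 14 and 13 counts in WT. Its levels were 1.88, 1.69 and 1.49 CPM in cKO against 0.421, 0.403 and 0.356 CPM in WT, so the groups were far apart and each was narrow. It rose 4.26-fold (log2 fold change 2.09, 95% interval 1.54 to 2.63, edgeR adjusted p = 0.00215), a call kept in every leave-one-out fit. Of its 50-base transcript words 10.2% also occur in other genes, and 3 genes of the opposite strand overlap its exons by 73 to 380 bases, so a part of its fragments may be missing or shared.

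Tfap2b, the second AP-2 factor, known from sympathetic neurons and kidney (ENSMUSG00000025927, chromosome 1, 19208914 to 19238576), had 29, 4 and 23 counts in cKO and 12, 2 and 4 counts in WT. The groups overlapped, since cKO replicate 2 lay below WT replicate 1. Its log2 fold change of 1.69 had a 95% interval of -0.20 to 3.59 (edgeR adjusted p = 0.184). It was called without cKO replicate 2 (2.12, adjusted p = 0.00866) and in no other leave-one-out fit.

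Markers of epidermis, which also uses Tfap2a, had a higher summed level in cKO. The 7 keratinocyte markers summed to 22.5, 33.1 and 25.06 CPM in cKO and 16.7 to 17.003 CPM in WT. Of the 33.1 CPM in cKO replicate 2, Trp63, which was not called, made up 14.1. Trp63 had 393 counts in that library, against 64 and 70 in cKO replicates 1 and 3 and 24 to 40 in WT. Of the 7, Krt15 and Krt1 rose and 5 were not called, among them the basal keratin genes Krt5 (1.39, adjusted p = 0.148) and Krt14 (0.95, adjusted p = 0.202). Called higher were 4 of the list without cKO replicate 1 or 2, 1 without cKO replicate 3, WT replicate 1 or WT replicate 3, and 0 without WT replicate 2. The part of epidermis in the rise of Tfap2a was not tested. Of 11 neuron markers, given because Tfap2a and Tfap2b are active in sympathetic neurons, Tubb3 and Isl1 rose, while the noradrenergic genes Th (2.24, adjusted p = 0.115) and Dbh (0.89, adjusted p = 0.344) were not called. Without cKO replicate 2, 7 neuron markers were called higher, without cKO replicate 1 it was 1, and without cKO replicate 3 or any single WT library it was 0. The part of neurons was not tested either.

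Msx1 and Zic1, the other 2 factors of the plate border, were not called. Msx1, a homeobox factor (ENSMUSG00000048450, chromosome 5, 37820485 to 37824583), read 2.80, 1.83 and 2.17 CPM in cKO and 2.20, 1.67 and 1.81 CPM in WT, with a log2 fold change of 0.26 (95% interval -0.28 to 0.81, edgeR adjusted p = 0.443). The interval spans 0. Zic1, a zinc finger factor (ENSMUSG00000032368, chromosome 9, 91358058 to 91365810), read 0.304, 0.754 and 0.800 CPM in cKO and 0.150, 0.692 and 0.219 CPM in WT, and its log2 fold change of 0.80 had an interval of -0.69 to 2.29 (adjusted p = 0.396). With 10 to 28 counts in a cKO library and 5 to 24 in a WT library, a change of Zic1 was not resolved at this depth.

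Foxd3, a forkhead factor that keeps crest cells multipotent and is made by Schwann cell precursors (ENSMUSG00000067261, chromosome 4, 99656299 to 99658622), was the factor that fell. It read 32.6, 23.4 and 36.3 CPM in cKO and 61.2, 49.1 and 57.9 CPM in WT, with every cKO library below every WT library. The fall was 1.82-fold (log2 fold change -0.87, 95% interval -1.28 to -0.45, edgeR adjusted p = 0.0170). The call was lost without WT replicate 1 (-0.81, adjusted p = 0.0802) and without WT replicate 3 (-0.85, adjusted p = 0.0736). Without cKO replicate 2 it held (-0.70, adjusted p = 0.000156).

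Foxd3 moved with Schwann lineage markers, of which 11 were called lower, 0 higher and 1, Erbb3, in neither direction (12 in all, median log2 fold change -1.85). Their summed level was 13096, 6740 and 11627 CPM in cKO and 57994.5 to 62366 CPM in WT. It was lowest in cKO replicate 2, as was Foxd3. Of the factors, Pax3, Tfap2b, Snai1, Twist1, Ets1 and Msx1 were also at their lowest cKO level there, so this is not particular to Foxd3. The part of Schwann cells in the fall of Foxd3 was not tested. Sox10 fell by a similar amount (-0.94, adjusted p = 0.0440), a call kept in only 1 leave-one-out fit, that without cKO replicate 2. The ratio of Foxd3 to Sox10 CPM was 0.204, 0.273 and 0.221 in cKO and 0.226, 0.206 and 0.209 in WT, and the groups overlapped. Of 9 markers of melanocytes, another derivative of the crest, 5 were tested and Mitf and Dct fell, with sums of 40.02 to 47.4 CPM in cKO and 58.9 to 59.5 CPM in WT. Without cKO replicate 3 or any single WT library 1 of these 2 calls remained, that of Mitf. Among the defining pigment genes, Tyr ran from 0.0911 to 0.229 CPM in cKO and from 0.0274 to 0.115 CPM in WT, and Slc45a2 had 0 counts in all 3 cKO libraries.

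**Figure D2:**
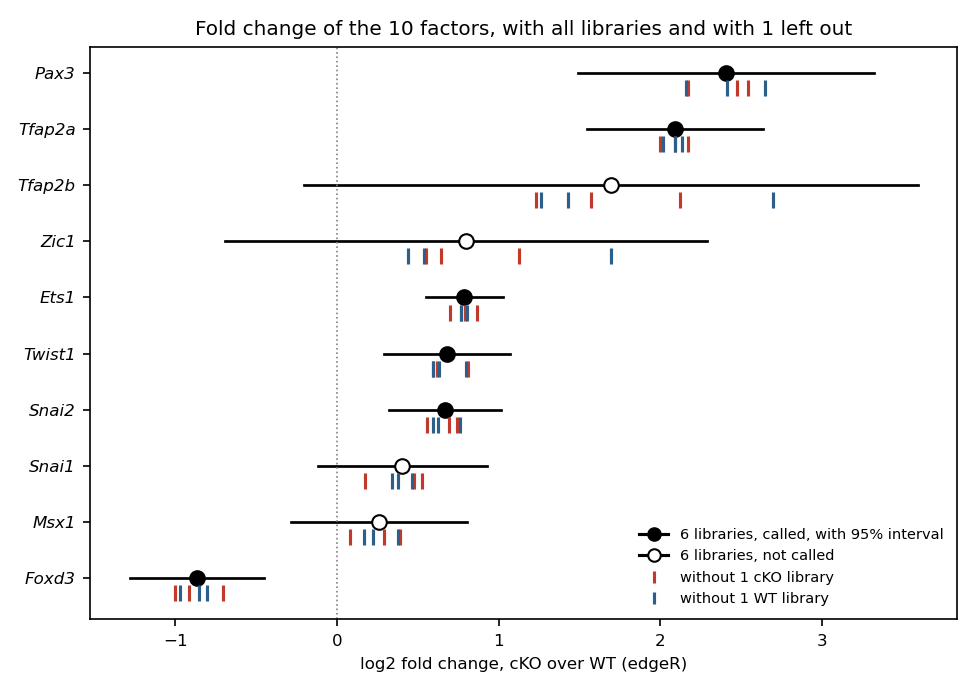
Points give the log2 fold change of each factor (cKO over WT, horizontal axis) with its 95% interval, filled where called. Short marks under each point give the value without 1 cKO library (red) or 1 WT library (blue). Foxd3 alone lies left of 0, Pax3 and Tfap2a lie above 2, and the intervals of Tfap2b and Zic1 are the widest of the 10.

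Ets1, an ETS-domain factor of cranial and cardiac crest, endothelium and lymphocytes (ENSMUSG00000032035, chromosome 9, 32636221 to 32757820), read 98.4, 78.5 and 87.5 CPM in cKO and 49.97, 50.5 and 52.6 CPM in WT. Over the 6 libraries it had the most counts of the 10 factors, with 2187 to 3240 counts in cKO libraries and 1661 to 1921 in WT, and the groups did not overlap. It rose 1.73-fold (log2 fold change 0.79, 95% interval 0.55 to 1.03, edgeR adjusted p = 0.00346), also in every leave-one-out fit, where the log2 fold change ran from 0.70 to 0.86.

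Marker lists of cells that use Ets1 gave mixed values. Of 12 endothelial markers Tek rose (0.80) and 11 were not called, with summed levels of 831.5, 859.8 and 799.5 CPM in cKO and 735 to 770 CPM in WT. The median endothelial log2 fold change was 0.09. Of 9 lymphocyte markers 6 were tested and the B cell gene Ms4a1 rose. The list summed to 6.26, 11.05 and 7.03 CPM in cKO and to 3.10 to 3.83 CPM in WT. Of the 11.05 CPM in cKO replicate 2, Cd3e made up 5.38, against 0.334 and 0.400 CPM in the other cKO libraries. Cd3e passed the low-count filter through its cKO libraries alone. Without cKO replicate 2, 4 lymphocyte markers were called higher, Cd3e among them, and without cKO replicate 3 or any single WT library 0 were. Of 8 macrophage and leukocyte markers 7 rose, Ptprc (CD45) among them at 0.75, and their sum was 804 to 1065 CPM in cKO and 482 to 551 CPM in WT. Of these 7 calls, those of Cd68 and Mrc1 held in every leave-one-out fit; 2 markers were called without WT replicate 1, where Ptprc lost its call, and 4 without WT replicate 3. The part of these cells in the rise of Ets1 was not tested.

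Snai1 and Snai2 encode Snail and Slug, zinc finger repressors of epithelial genes. Snai2 (ENSMUSG00000022676, chromosome 16, 14705852 to 14709385) read 14.9, 17.7 and 13.8 CPM in cKO and 8.78, 9.39 and 10.97 CPM in WT, without overlap. It rose 1.59-fold (log2 fold change 0.67, 95% interval 0.32 to 1.01, edgeR adjusted p = 0.0222). Its highest level was in cKO replicate 2, without which the log2 fold change was 0.56 (edgeR adjusted p = 0.00364). The call was lost without WT replicate 1 (0.59, adjusted p = 0.102), WT replicate 2 (0.63, adjusted p = 0.0989) or WT replicate 3 (0.76, adjusted p = 0.0553).

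Snai1 (ENSMUSG00000042821, chromosome 2, 167538195 to 167542814) read 2.92, 2.66 and 4.20 CPM in cKO against 2.41, 2.31 and 2.68 CPM in WT. The lowest cKO library lay just under the highest WT library. Its log2 fold change was 0.40 (95% interval -0.12 to 0.93, edgeR adjusted p = 0.238) and it was called in 0 of the 6 leave-one-out fits. Per exonic length, Snai2 exceeded Snai1 in every library, 2.63- to 5.35-fold in cKO and 2.93- to 3.28-fold in WT. Whether the changes of the 2 genes differ was not tested.

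Twist1, a bHLH factor of crest mesenchyme (ENSMUSG00000035799, chromosome 12, 33957671 to 33959829), read 25.4, 18.5 and 24.7 CPM in cKO and 13.4, 12.8 and 16.6 CPM in WT. The groups did not overlap, and cKO replicate 2 was the lowest of its group. It rose 1.603-fold (log2 fold change 0.68, 95% interval 0.29 to 1.07, edgeR adjusted p = 0.0313). This call is the least stable of the 6: it held in 1 leave-one-out fit, that without cKO replicate 2 (0.81, adjusted p = 0.00013), and in the other 5 the log2 fold change was 0.59 to 0.80 with adjusted p from 0.0591 to 0.134.

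Fibroblast markers, given because Twist1 and Snai2 are used in fibroblasts, rose in part. Of 12, 11 were tested, 4 rose (Dpp4, Pi16, Clec3b and Dpt, at log2 fold changes from 1.08 to 1.32) and 7 were not called, among them Col1a1 (-0.002) and Pdgfra (0.19). Their summed level was 45607, 35701 and 42825 CPM in cKO and 35394 to 35680 CPM in WT. In cKO replicate 2, where this sum was lowest, Twist1 was also at its lowest among the cKO libraries, but Snai2 was at its highest. The 4 calls held in every leave-one-out fit, and without cKO replicate 2 the list had 7. The part of these cells in the rise of Twist1 and Snai2 was not tested.

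Per exonic length the order of the factors differed between genotypes at its head. In cKO nerves Twist1 (14.06 ± 2.35 CPM per kilobase), Foxd3 (13.2 ± 2.86) and Ets1 (10.4 ± 1.18; SD, n = 3 each) came first, and the libraries of Twist1 and Foxd3, and of Foxd3 and Ets1, overlapped. In WT nerves Foxd3 led (24.1 ± 2.70 CPM per kilobase), with Twist1 (8.77 ± 1.24) and Ets1 (6.02 ± 0.16; SD, n = 3 each) after it, and no 2 of these overlapped. The ratio of Twist1 to Foxd3 per length was 1.11, 1.13 and 0.974 in cKO and 0.314, 0.372 and 0.409 in WT. Snai2, Snai1, Msx1 and Tfap2a followed in that order in both genotypes. The last 3 places were held by Pax3, Zic1 and Tfap2b, in that order, in cKO, and by Zic1, Tfap2b and Pax3 in WT, and neighbours among these 3 overlapped in each genotype, as did Tfap2a and Zic1 in WT.

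**Figure D3:**
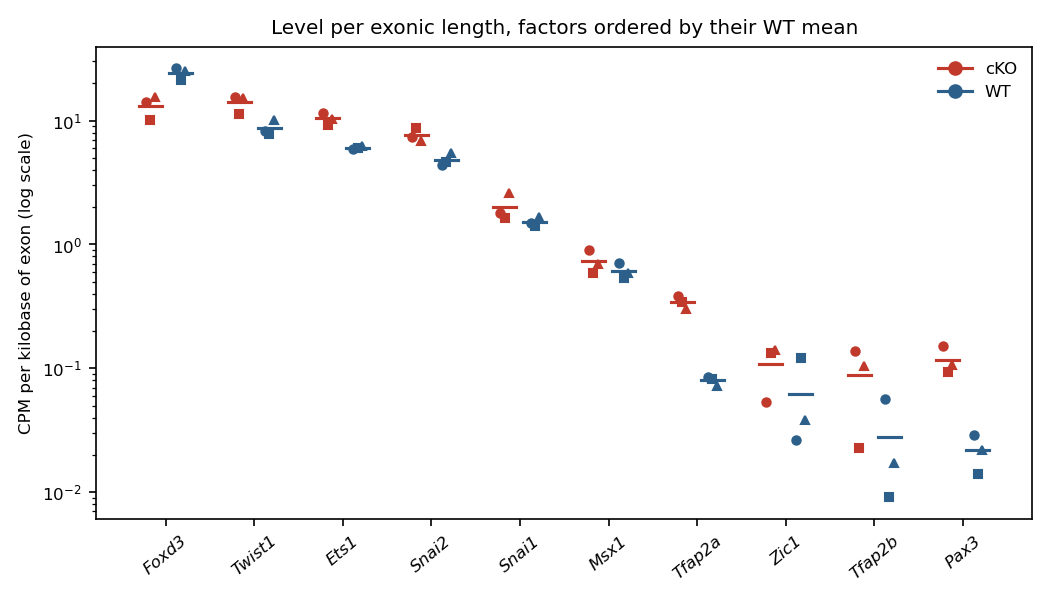
Points show CPM per kilobase of exon (log scale) in each library for the 10 factors, ordered by their WT mean, with cKO in red on the left and WT in blue on the right of each pair and lines at group means. Foxd3 stands highest in WT, and Twist1 and Foxd3 share the top in cKO.

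The nearest relatives of the factors in their gene families were mostly below the low-count filter. Of 16, 6 were expressed enough to be tested (Pax7, Foxd1, Foxd2, Snai3, Twist2 and Ets2) and 0 of the 6 were called by edgeR or by DESeq2, with 0 at an unadjusted edgeR p under 0.05. In the edgeR fit without cKO replicate 2, 3 were higher. Twist2 read 6.26, 4.20 and 7.94 CPM in cKO and 3.46, 4.78 and 3.80 CPM in WT (log2 fold change 0.61, adjusted p = 0.146). Pax7, the satellite cell counterpart of Pax3, read 13.2 CPM in cKO replicate 2 against 1.003 and 1.83 CPM in the other cKO libraries and 1.20 to 1.56 CPM in WT. Foxd1 and Foxd2 had log2 fold changes of 0.26 and 0.05, where Foxd3 had -0.87.

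Other transcription factors of the crest network went both ways. Of 22, 18 were tested, 3 rose, 3 fell and 12 were not called (median log2 fold change -0.28). Without cKO replicate 2, 5 were higher and 4 lower, and without cKO replicate 3 or any single WT library 1 was higher and 1 lower. Myc, a growth regulator also active in early crest, read 28.04, 18.8 and 22.1 CPM in cKO and 8.97, 8.07 and 7.72 CPM in WT (log2 fold change 1.48, edgeR adjusted p = 0.00229). Mitf, the melanocyte factor, read 15.2, 14.6 and 17.001 CPM in cKO and 27.8, 28.2 and 28.4 CPM in WT (-0.85, adjusted p = 0.00237). Both were called in every leave-one-out fit, and their groups were far apart.

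Dlx5 (2.94, adjusted p = 0.0265), a homeobox factor of the plate border and of bone, and Zeb1 (0.47, adjusted p = 0.0158), a repressor of epithelial genes, rose as well. Each of these 2 calls held in 2 of the 6 leave-one-out fits. Dlx5 was low, at 0.304, 0.574 and 1.17 CPM in cKO and 0.150, 0.0576 and 0.0547 CPM in WT, with the highest level in cKO replicate 3. Like Pax3, it passed the low-count filter through its cKO libraries alone, since 0 of the 3 WT libraries reached the level set, so its call is no independent support for a change of the list. The bone gene Ibsp, which was not called, read 1.09, 14.6 and 22.0 CPM in cKO and 3.25, 1.79 and 1.09 CPM in WT; the part of bone cells in the rise of Dlx5 was not tested. The orphan nuclear receptor gene Nr2f1 fell beside Sox10 and Mitf (-0.77, adjusted p = 0.0474), a call held in 1 of the 6 fits. Sox9 (-0.39, adjusted p = 0.273), Sox8 (-0.35, adjusted p = 0.113), Sox5 (-0.40, adjusted p = 0.152) and Zeb2 (-0.35, adjusted p = 0.112) were not called.

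Markers of crest cells and Schwann cell precursors did not move as a group. All 17 were tested, 2 rose, 2 fell and 13 were not called (median -0.22). Gap43, a growth cone protein made by immature Schwann cells, read 63.8, 51.7 and 53.5 CPM in cKO and 21.2, 26.8 and 28.9 CPM in WT (log2 fold change 1.14, edgeR adjusted p = 0.00346). Gfra3, a receptor subunit of precursors, rose (1.54, adjusted p = 0.0398), a call that among the leave-one-out fits held only without cKO replicate 2. Ngfr (-0.18, adjusted p = 0.562), Cdh19 (0.07, adjusted p = 0.860) and Ednrb (-0.29, adjusted p = 0.233) were not called. Without cKO replicate 2, 5 of the markers were higher and 6 lower; without any single WT library 1 was higher and 2 lower, and without cKO replicate 3 1 was higher and 4 lower.

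**Figure D4:**
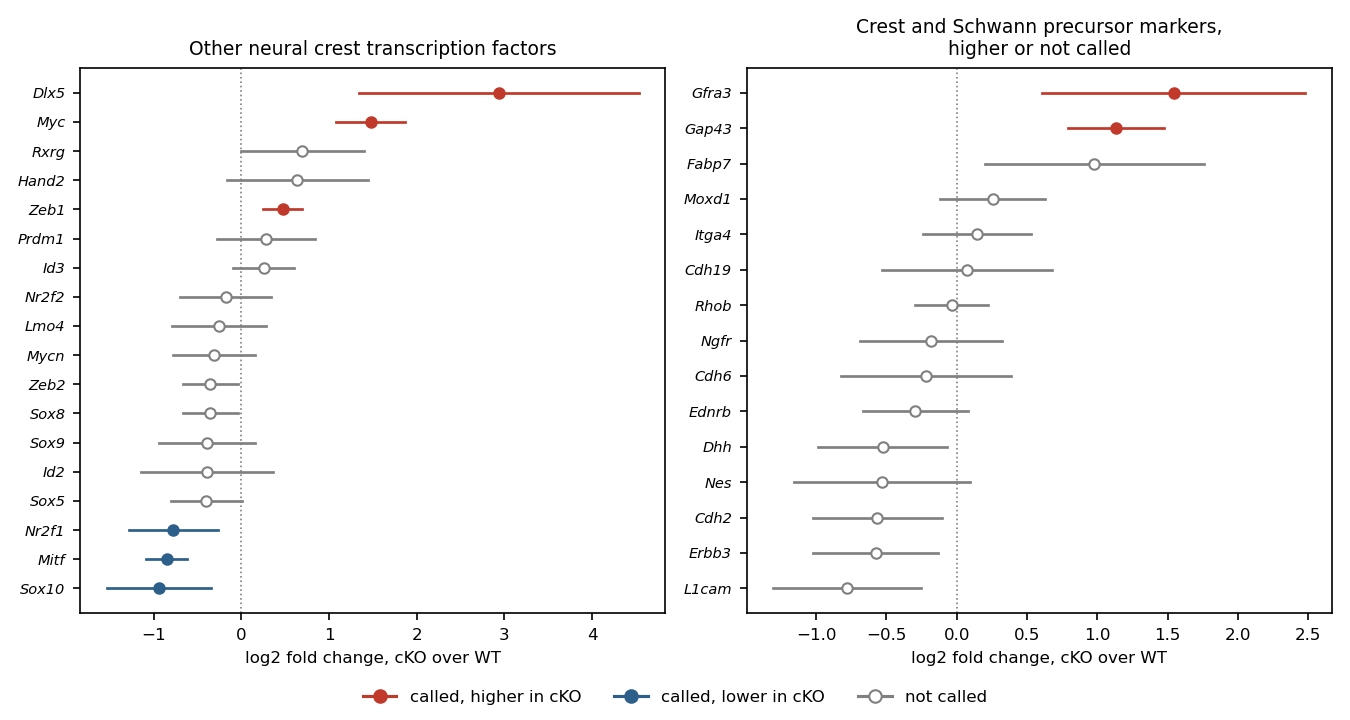
Log2 fold changes (cKO over WT, horizontal axis) with 95% intervals for the tested genes of the other crest transcription factors (left) and for the crest and precursor markers that rose or were not called (right), red where called higher, blue where called lower and grey where not called. On the left 3 genes are red and 3 blue, and on the right 2 are red.

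Genes of the epithelial to mesenchymal transition, which Snail, Twist and Zeb factors control in the crest, were split. Of 16, 15 were tested, 3 rose, 2 fell and 10 were not called (median log2 fold change 0.35). Cdh1 (E-cadherin), the classic target of Snail repression, read 45.1, 24.7 and 45.6 CPM in cKO and 82.0, 77.3 and 88.5 CPM in WT (-1.10, edgeR adjusted p = 0.0235). Cdh1 is also a protein of myelin-forming Schwann cells, at the autotypic junctions of their membrane. The part of these cells, and that of the Snail factors, in the fall of Cdh1 was not tested. Dropping any single WT library ended the call of Cdh1.

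Esrp1, an epithelial splicing factor, read 1.15, 0.502 and 1.11 CPM in cKO and 4.51, 4.84 and 4.05 CPM in WT (-2.26, adjusted p = 0.00471). It was also called lower in every leave-one-out fit. The epithelial keratin genes Krt18 (1.96, adjusted p = 0.0245) and Krt8 (2.64, adjusted p = 0.0337) rose from low levels, in the opposite direction to Cdh1 and Esrp1, and the integrin gene Itga5 rose (0.44, adjusted p = 0.0395). Dropping any single WT library ended these 3 calls, and those of Krt8 and Itga5 also ended without cKO replicate 3. Of the mesenchymal members, Fn1 had 0.41 (adjusted p = 0.0503) and Vim -0.25 (adjusted p = 0.342), neither called. Without cKO replicate 2, 10 members were higher and 2 lower; without any single WT library 0 were higher and 1 lower, and without cKO replicate 3 1 was higher and 2 lower.

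Known targets of Pax3 also moved both ways. Of 10, 9 were tested, 2 rose, 2 fell and 5 were not called (median log2 fold change 0.67). The median was 0.22 without cKO replicate 2, where 2 were again higher and 2 lower. The growth factor gene Tgfb2 read 36.1, 52.6 and 37.2 CPM in cKO and 19.9, 20.3 and 23.3 CPM in WT (0.99, edgeR adjusted p = 0.00901), and Hes1, a Notch effector, rose (0.67, adjusted p = 0.0190). Mitf, given above, fell, and so did Dct, an enzyme of melanin synthesis (-1.08, adjusted p = 0.0210). The call of Tgfb2 was lost without WT replicate 1 or 2, and those of Hes1 and Dct held in 2 of the 6 fits. Ret (0.71, adjusted p = 0.0916) and Met (-0.12, adjusted p = 0.487) were not called, and Myf5 and Fgfr4 were highest in cKO replicate 2. Over the list, 0 were higher and 1 lower without WT replicate 1 or 2, and 1 was higher and 1 lower without WT replicate 3 or cKO replicate 3.

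**Figure D5:**
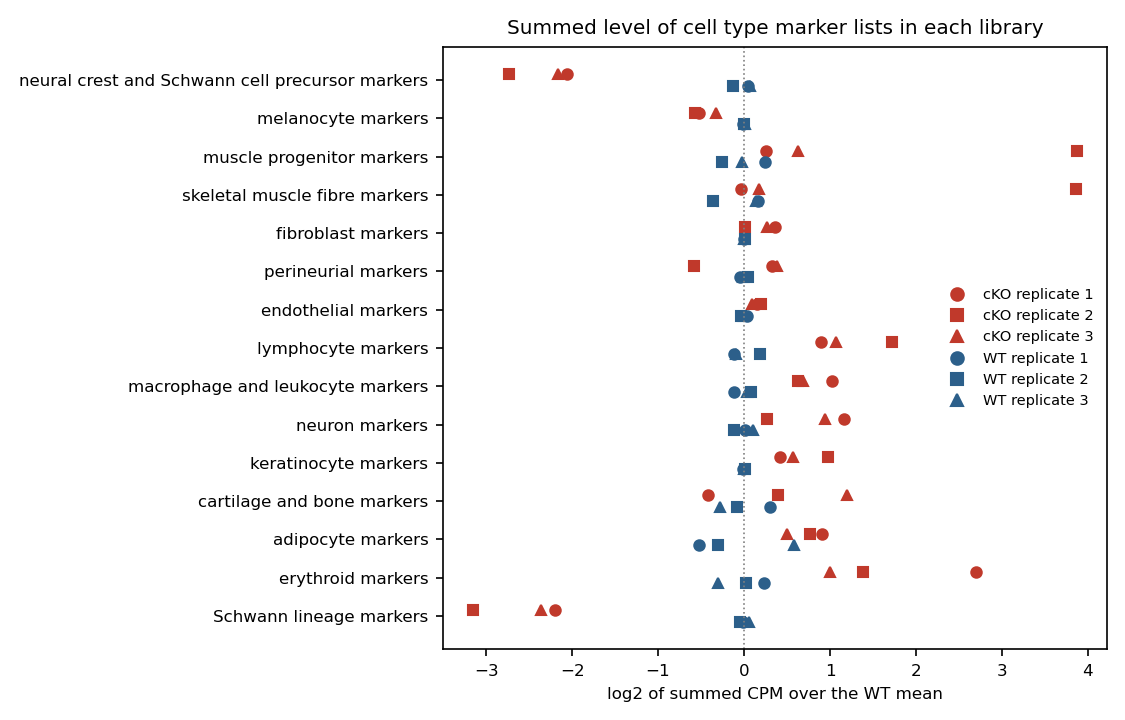
Each row is a list of cell type markers, and points give the log2 of the summed CPM of a library over the WT mean, with cKO in red above WT in blue and a shape per replicate number. Both muscle lists are far to the right in cKO replicate 2, and the Schwann lineage list lies left in all 3 cKO libraries. The erythroid list is highest in cKO replicate 1 (21868 CPM against 2725 to 3940 CPM in WT).

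The genes closest to each called factor over the 6 libraries were found by the root mean square difference of log2 CPM after centring each gene on its own mean, among tested genes whose average log2 CPM reached 1. A prior count of 2 was added before the log was taken. This pulls in the spread of genes with few counts, so the neighbours and differences given for Pax3 and Tfap2a partly depend on it. For Pax3 they were Mx1 (0.16) and Isg15 (0.19), and for Tfap2a Irf7 (0.10) and Oasl2 (0.15). Mx1 read 4.71, 2.48 and 2.94 CPM in cKO and 0.933, 0.749 and 0.903 CPM in WT. The nearest genes were Fbxl15 (0.05) and Arl8a (0.07) for Foxd3, Eps8 and Runx1 (0.04 each) for Ets1, Fth1 (0.03) and Cutc (0.04) for Snai2, and Gpsm3 (0.04) and BC022960 (0.07) for Twist1. The measure rests on 6 libraries in 2 groups, so it says little beyond the level of each genotype and the place of each library in its group.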

How the data were processed

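The deposited table holds counts of fragments per gene, made by the authors with featureCounts 1.6.1 on exons of Ensembl GRCm38 release 95, with both ends aligned, mapping quality of at least 20 and no use of strand, per the file headers. Subread 2.0 and DESeq2 1.3 are also listed in the submitters' processing notes, with no aligner settings. Without strand, antisense reads count for a gene, and fragments on exons of 2 genes count for neither. Exonic lengths are those of the deposited table. Of 54838 rows, 54723 had a symbol in the GENCODE M21 table, and 0 lacked an identifier. The 37 mitochondrial genes had 0 counts.

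From the counts, edgeR 4.0.16 (R 4.3.3) was run on all 6 libraries: filterByExpr (minimum count 10, at least 3 libraries), TMM, robust quasi-likelihood F test, 2-sided, 4 residual degrees of freedom, Benjamini-Hochberg adjustment over 18775 genes. Standard errors and 95% intervals came from the quasi-likelihood statistic. On 3 simulated sets of 18775 genes with 200 changed, 78.1% of the 4-fold, 31.8% of the 2-fold and 4.04% of the 1.5-fold changes passed, and 8.80% of all calls were false. In the real data 3534 genes were called, and the Benjamini-Hochberg cutoff depends on the share changed, so these rates need not hold there. They are taken over genes of all levels and do not give the rate for a single factor. Alternatives were DESeq2 1.42.0, RLE factors, no low-count filter, a replicate block and leaving out each library. Replicate libraries differed beyond sampling noise (chi-square over its degrees of freedom 28.8 to 312 in cKO, 8.26 to 14.9 in WT), so each counted once.

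The 10 factors and the gene lists were chosen with earlier results of these data known. Named genes were the 10 factors, up to 4 called genes of each crest list with the smallest p, list genes that check a cell type, and the 2 nearest genes of each called factor. Nr2f1, Itga5, the list genes named as not called, Twist2, Pax7, Foxd1, Foxd2, Dlx6, Gbx2 and Tfap2c were named after their values were seen. So were Zic2, Zic4, Tfap2e, Msx2, Foxd4, Cd3e and Trp63. Some genes of the lists are not reported here by name. Upstream sequences are from RefSeq (GRCm38.p6).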

Additional observations from a re-analysis of the deposited data

How the results depend on the processing

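All 10 factors kept the direction of their log2 fold change in the 10 alternatives run. RLE factors, DESeq2 and the fit with no low-count filter changed none of their calls. Leaving out each library gave 3 to 6 factors called higher and 0 to 1 called lower, against 5 and 1 with all libraries. Over all genes the counts ran from 449 to 3425 higher and from 790 to 3398 lower in those fits, against 1605 and 1929; both were largest without cKO replicate 2, and the cause was not tested. Leaving out a library also removes 1 of the 4 residual degrees of freedom. With the replicate number as a block, 744 genes were higher and 1108 lower and Snai2 alone of the factors lost its call (0.67, adjusted p = 0.0673). Same-numbered libraries did not deviate together (correlation of deviations -0.22, -0.23 and -0.08), and 0 of 3 cKO libraries correlated best with the WT library of their own number, so the numbers were not treated as pairs. Pax3, Tfap2b and Zic1, with at most 31 counts in a library, are limited by depth.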

Other observations

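Some crest genes were too low to be tested and are given as counts. Dlx6, the neighbour of Dlx5 in the genome, had 4, 8 and 38 counts in cKO and 1, 1 and 0 counts in WT. Gbx2, a factor of the plate border, had 9, 3 and 4 counts in cKO and 1, 2 and 0 counts in WT, and the AP-2 factor gene Tfap2c had 8, 7 and 7 counts in cKO and 3, 0 and 0 counts in WT. These genes were named after their values were seen, and other untested relatives of the factors did not all go this way. Zic2 had 1, 4 and 6 counts in cKO and 4, 9 and 1 in WT, and Zic4 1, 3 and 1 against 3, 3 and 1. Tfap2e had 0, 1 and 0 against 2, 1 and 1, and Msx2 6, 4 and 30 against 11, 2 and 2. Foxd4, with 1, 3 and 4 against 0, 1 and 0, was higher in cKO. Gm26688, which lies on the strand opposite Tfap2a, overlaps 380 of its exonic bases and spans most of the upstream window printed for it, had 8, 4 and 5 counts in cKO and 0 counts in each WT library. With strand unused, the strand of these fragments is not known.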
